A study of Mus musculus with 6 samples.

Results

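This account follows 9 genes that are rich in the thalamus of the mouse brain: Ramp3, Tcf7l2, Lef1, Shox2, Prkcd, Synpo2, Amotl1, Plekhg1 and Slitrk6. They were chosen by the read counts of Ramp3, which were higher in Bahd1-KO than in Bahd1-WT brains, and by their known presence in the thalamus, so the comparison of genotypes is given for these genes as a description. They are 9 of the 53801 genes in the count table, and 9 of 9 were among the 23975 genes tested. RNA was sequenced from 1 hemisphere of each of 6 male C57BL/6 mice of about 70 weeks, 3 with both copies of Bahd1 intact (Bahd1-WT, +/+) and 3 homozygous for its loss (Bahd1-KO, -/-). Bahd1 encodes a chromatin protein of repressive complexes that hold histone deacetylases, and the study asked which genes change in the brain without it. The labels name no driver that would limit the knockout to a tissue, and the tissue was a whole sagittal hemisphere, so a level of any gene is an average over all regions and cell types. In such bulk RNA, fewer cells of a type and less RNA per cell cannot be told apart.

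The thalamus relays sensory and motor signals to the cortex through excitatory relay nuclei, and it is flanked by the inhibitory reticular nucleus and by the habenula. Relay neurons keep the DNA-binding protein TCF7L2 throughout adult life. TCF7L2 and its relative LEF1 are the nuclear partners of β-catenin in Wnt signalling. RAMP3 is a single-pass membrane protein that accompanies the receptors for calcitonin and for calcitonin gene-related peptide (CGRP) and changes which peptide they bind, with adrenomedullin and amylin among the ligands of the pairs it forms.

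The stretches before a start site of 4 of the genes are shown to set the gene that differed most, Ramp3, beside the best known thalamic regulator, Tcf7l2, and beside the 2 genes that were lower in every Bahd1-KO hemisphere, Plekhg1 and Slitrk6. Each is the 250 bases before a RefSeq start site in GRCm38.p6, read 5′ to 3′ on the strand of the gene, and capitals mark CG dinucleotides, the bases at which vertebrate DNA is methylated. The window of Plekhg1 precedes an internal start site and lies within the span of the gene, and the others lie at the start of theirs. They lie at chr11:6658283-6658532 (plus strand), chr19:55741560-55741809 (plus), chr10:3872417-3872666 (plus) and chr14:110755150-110755399 (minus).
Ramp3: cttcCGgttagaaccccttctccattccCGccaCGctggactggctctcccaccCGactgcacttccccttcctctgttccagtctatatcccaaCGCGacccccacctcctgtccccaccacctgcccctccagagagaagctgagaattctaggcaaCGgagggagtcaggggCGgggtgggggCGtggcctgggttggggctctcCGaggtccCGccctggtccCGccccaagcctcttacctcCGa
Tcf7l2: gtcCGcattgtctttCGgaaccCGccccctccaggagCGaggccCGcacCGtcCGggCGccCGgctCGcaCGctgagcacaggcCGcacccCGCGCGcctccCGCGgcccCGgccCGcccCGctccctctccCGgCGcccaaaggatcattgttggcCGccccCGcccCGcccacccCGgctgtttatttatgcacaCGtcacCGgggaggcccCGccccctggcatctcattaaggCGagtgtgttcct
Plekhg1: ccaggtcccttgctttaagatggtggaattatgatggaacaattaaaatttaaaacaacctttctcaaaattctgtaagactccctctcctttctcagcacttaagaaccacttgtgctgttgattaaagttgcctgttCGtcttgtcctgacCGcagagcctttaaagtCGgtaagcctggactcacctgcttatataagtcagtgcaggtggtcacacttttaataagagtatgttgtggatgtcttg
Slitrk6: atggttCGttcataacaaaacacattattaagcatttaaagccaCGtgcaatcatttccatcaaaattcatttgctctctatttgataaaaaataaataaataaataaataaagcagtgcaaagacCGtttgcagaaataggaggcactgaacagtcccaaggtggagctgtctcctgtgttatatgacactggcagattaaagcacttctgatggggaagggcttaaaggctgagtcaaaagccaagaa
The window of Ramp3 held 13 CG dinucleotides and was 65.2% G or C, and that of Tcf7l2 held 30 at 72.8%. Those of Plekhg1 and Slitrk6 held 3 each, at 41.2% and 37.2%. Over all 32851 windows of this length the median was 6 CG dinucleotides, with the middle of the distribution, from the 25th to the 75th percentile, running from 2 to 16, and the median GC content was 52.4%. The letters CTTTGAA or CTTTGAT, which TCF and LEF proteins bind, occurred on neither strand in any of the 14 windows of the 9 genes, against 2457 of the 32851 windows (7.48%). Matching was by letters alone and says nothing of binding.

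The hemispheres were sequenced to between 42297150 and 93557948 counts, so that 3 counts correspond to a normalized level (CPM, the count scaled to the size of its library) of 0.0315 to 0.069, and each of the 9 genes lay above that level in every sample. The labels held for the targeted gene: Bahd1 had 1383, 844 and 1099 counts in Bahd1-WT replicates 1 to 3, against 0, 14 and 1 in Bahd1-KO. Across the 13283 expressed genes, the log2 fold change between genotypes rose with the GC content of the transcript (Spearman's correlation 0.862 across genes, which are not independent replicates), from a median of −0.55 in the lowest of 10 equal groups of genes by GC content (median 39.37%) to 1.4 in the highest (59.39%). The results for the 9 genes and each median printed for a gene list are therefore given also with an offset, a term in the model that removes the smooth trend with GC content and transcript length in each library and brings that correlation to −0.0141. Markers of the olfactory bulb differed between hemispheres of the same genotype, with a sum of 87.8, 24.2 and 26.8 CPM over 5 genes in Bahd1-WT replicates 1 to 3 and of 95.3, 62.9 and 28 in Bahd1-KO. Markers of lung, which a dissected brain should lack, summed over 8 genes to 117, 26.8 and 2.62 CPM in Bahd1-WT and to between 0.575 and 1.89 in Bahd1-KO. The study calls the Bahd1-WT mice littermates, and all p-values measure the spread between these animals.

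Ramp3 stood apart from the other 8 genes. It was measured at 2.52, 1.64 and 1.57 CPM in Bahd1-WT replicates 1 to 3 and at 5.61, 14.9 and 8.27 CPM in Bahd1-KO replicates 1 to 3, with 101 to 231 counts and 244 to 1421 counts behind them. Every Bahd1-KO hemisphere was above every Bahd1-WT hemisphere, and the Bahd1-KO values were themselves spread widely, with replicate 2 the highest and replicate 1 the lowest. The means were 1.91 ± 0.534 CPM (SD, n = 3) and 9.6 ± 4.8 CPM (SD, n = 3), a log2 fold change of 2.33 with a standard error (SE) of 0.39, or 5.03-fold. Among all 23975 genes tested, 2.08% had a larger log2 fold change. Without replicate 2 of Bahd1-KO the log2 fold change of Ramp3 was 1.86, and without replicate 1 it was 2.64, the extremes over the 6 ways of leaving out 1 hemisphere. Without replicate 1 of Bahd1-WT, which had the highest sum of lung marker genes, it was 2.58 for Ramp3, −0.45 for Plekhg1 and −0.46 for Slitrk6.

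Ramp3 also lies where the GC trend runs high. Its longest transcript is 55.4% G or C, and the genes of the same GC group had a median of 0.89 on the log2 scale, with 1.2% of them above Ramp3. With the offset Ramp3 was at 3.03, 2.46 and 2.05 CPM in Bahd1-WT and at 5.25, 7.83 and 7.15 CPM in Bahd1-KO. The genotypes were still separated, and the Bahd1-KO hemispheres lay closer to each other than before. The log2 fold change was then 1.42 (SE 0.21), or 2.68-fold, and 0.632% of the 13283 expressed genes had a larger one. This share is over fewer genes than the 2.08% given above, so the shares are not directly comparable. Leaving out each hemisphere in turn with the offset gave 1.29 to 1.58.

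**Figure D1:**
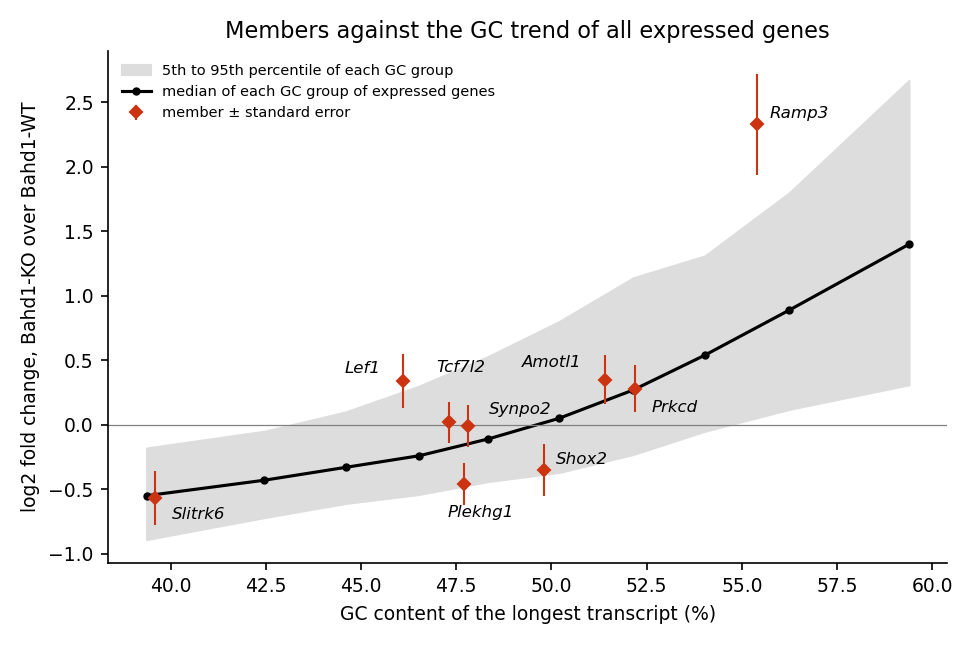
Log2 fold change of Bahd1-KO over Bahd1-WT (y axis) against GC content of the longest transcript in % (x axis). The line joins the medians of 10 equal GC groups of the 13283 expressed genes, shading runs from their 5th to 95th percentile, and diamonds with bars are the 9 genes with their standard errors. Slitrk6, Prkcd and Amotl1 lie close to the line, Ramp3 and Lef1 clearly above it, Tcf7l2 and Synpo2 slightly above it, and Plekhg1 and Shox2 below it.

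Ramp3 lies at chr11:6658521-6677475 on the plus strand of GRCm38 (ENSMUSG00000041046), with 1380 bases of exon. A processed pseudogene on the opposite strand, Gm11978, shares 101 of those bases (7.32%) and had between 1 and 12 counts in a sample, against at least 101 for Ramp3. The methods of the study name a library kit that keeps strand and a counting setting that used it, while the labels name the kit without the word stranded. If strand was not kept, reads of a gene and of its partner on the opposite strand cannot be told apart, which also holds for the overlaps of Lef1 and Shox2 given below.

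By the thresholds of the study, an adjusted p under 0.05 and at least a 2-fold change, edgeR called 0 of the 9 genes, where it called 2 of all 23975 (0.00834%). DESeq2, the tool the study used, called 1 of the 9, Ramp3, at the same thresholds, where it called 2522 of all genes (10.5%). At an unadjusted p under 0.05 edgeR listed 1 of the 9 as higher in Bahd1-KO, Ramp3, beside 19.9% of all genes, and 2 as lower, Plekhg1 and Slitrk6, beside 12.0%. The same genes were those in which the genotypes did not overlap: 1 of 9 with every Bahd1-KO hemisphere above every Bahd1-WT hemisphere, beside 20.6% of all genes, and 2 of 9 below, beside 19.3%, which makes 3 of 9 without overlap, beside 39.8%. Because these genes were picked with this comparison known, nothing further is read from the counts. The median log2 fold change of the 9 genes was 0.02, against −0.06 over all genes tested, and 5 were higher and 4 lower in Bahd1-KO. With the offset the medians were 0.16 and −0.06, and edgeR called 0 of the 9, beside 0.0167% of all genes.

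The remaining 8 genes differed far less between genotypes than Ramp3, from −0.57 for Slitrk6 to 0.35 for Amotl1 on the log2 scale. Summed over the 8, the level was 317, 282 and 300 CPM in Bahd1-WT and 273, 307 and 323 CPM in Bahd1-KO, and the ranges of the genotypes overlapped almost entirely. Ramp3 also varied most: its highest sample was 9.52 times its lowest over the 6 hemispheres, against 1.18 to 2.1 times for the other 8.

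**Figure D2:**
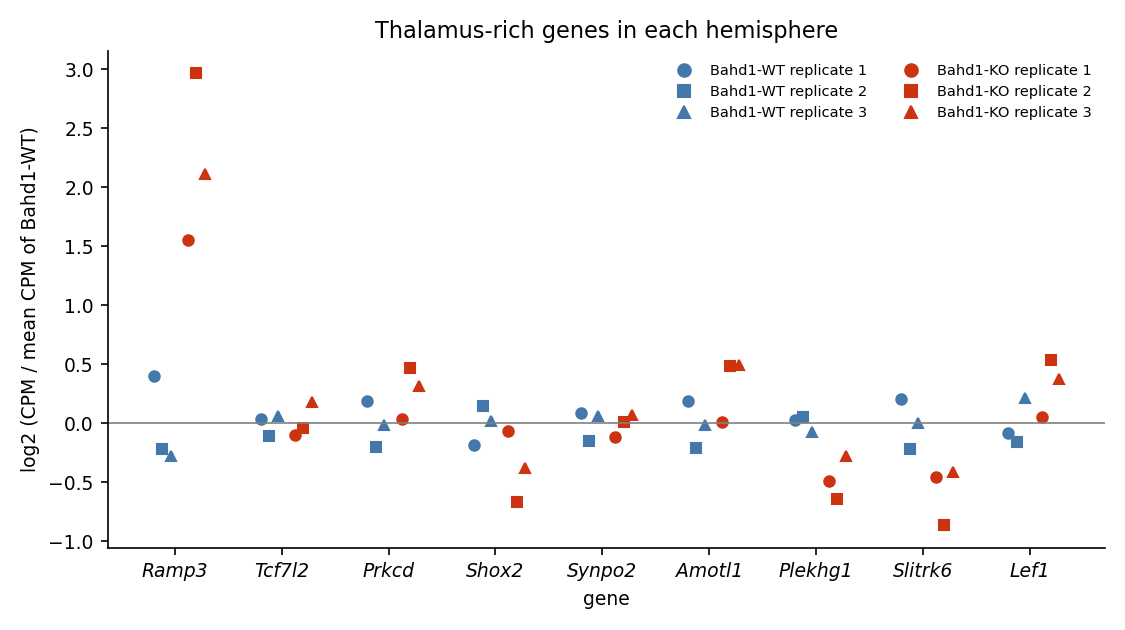
Level of each of the 9 genes in each hemisphere, as log2 of its CPM over the mean CPM of Bahd1-WT (y axis), by gene (x axis), with symbols for replicates 1 to 3 and colours for genotype. The 3 Bahd1-KO points of Ramp3 lie above all others, and those of Plekhg1 and Slitrk6 lie below all Bahd1-WT points of their gene.

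Of the transcription factors, Tcf7l2, which keeps the identity of relay neurons, was measured at 38.5, 34.9 and 39.3 CPM in Bahd1-WT and at 35.0, 36.6 and 42.6 CPM in Bahd1-KO. The genotypes overlapped, with the highest value in Bahd1-KO replicate 3 and the lowest in Bahd1-WT replicate 2. Its means were 37.6 ± 2.35 and 38.0 ± 4.01 CPM (SD, n = 3 each), and its log2 fold change was 0.02 (SE 0.16), or 0.18 (SE 0.10) with the offset. Its sign was not stable, since upper-quartile scaling gave −0.12. Tcf7l2 lies at chr19:55741820-55933654 on the plus strand.

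Lef1, the second TCF family member of the set, was measured at 9.63, 9.15 and 11.8 CPM in Bahd1-WT and at 10.6, 14.8 and 13.2 CPM in Bahd1-KO. The highest 2 values were in Bahd1-KO, and replicate 1 of Bahd1-KO lay inside the Bahd1-WT range. The log2 fold change was 0.34 (SE 0.21). Lef1 is one of the genes for which the offset widened the difference: at 46.1% GC its GC group had a median of −0.24, and with the offset its values were 8.85, 8.37 and 10.9 CPM in Bahd1-WT against 11, 18.3 and 13.4 in Bahd1-KO. All 3 Bahd1-KO hemispheres were then above all Bahd1-WT hemispheres, a log2 fold change of 0.60 (SE 0.20), or 1.52-fold. An antisense gene, Gm43352, shares 1208 bases of its exons (13.7%) and had 7 to 32 counts against 462 to 1414 for Lef1. Lef1 lies at chr3:131110471-131224356 on the plus strand.

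Shox2, a homeobox gene that relay neurons of some nuclei keep into adult life, was measured at 27.2, 34.2 and 31.3 CPM in Bahd1-WT and at 29.5, 19.4 and 23.8 CPM in Bahd1-KO. Bahd1-KO replicates 2 and 3 were below every Bahd1-WT hemisphere, and Bahd1-KO replicate 1 was inside their range. The log2 fold change was −0.35 (SE 0.20) and, with the offset, −0.40 (SE 0.16), and it was negative in 16 of 16 alternative settings of the processing. Shox2 lies at chr3:66971727-66981771 on the minus strand, and 153 bases of its exons (4.62%) overlap Rsrc1 on the other strand, which had 3246 to 7120 counts a sample against 1285 to 2489 for Shox2.

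Prkcd encodes protein kinase C delta, a kinase activated by diacylglycerol that is used as a marker of relay neurons and of a class of neurons in the central amygdala. It was measured at 74.1, 56.7 and 64.5 CPM in Bahd1-WT and at 66.7, 90.0 and 81.1 CPM in Bahd1-KO, and the genotypes overlapped through replicate 1 of each. Its means were 65.1 ± 8.72 and 79.3 ± 11.8 CPM (SD, n = 3 each). The log2 fold change of 0.28 (SE 0.18) equalled the median of its GC group, 0.27, to within the error, and it was −0.01 (SE 0.09) with the offset. Prkcd lies at chr14:30595354-30626210 on the minus strand.

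Synpo2 and Amotl1 encode proteins bound to the actin cytoskeleton, Synpo2 a relative of synaptopodin and Amotl1 a motin that holds the Hippo effector YAP at cell junctions. Synpo2 was measured at 31.9, 27.1 and 31.3 CPM in Bahd1-WT and at 27.7, 30.3 and 31.6 CPM in Bahd1-KO, the narrowest spread over the 6 hemispheres of the 9 genes. Its log2 fold change was −0.01 (SE 0.16), and it changed sign with the offset, at 0.16 (SE 0.11). Its adjusted values of 29.5, 26 and 29.6 CPM in Bahd1-WT and 29.9, 34.7 and 30.3 in Bahd1-KO then no longer overlapped. With the offset, 3 of the 9 genes had every Bahd1-KO hemisphere above every Bahd1-WT hemisphere, Ramp3, Lef1 and Synpo2, beside 11.7% of all genes. Plekhg1 alone had every one below, beside 14.6%. Ramp3 was chosen for its higher counts in Bahd1-KO, and Synpo2 was separated only by 29.9 against 29.6 CPM. Synpo2 lies at chr3:123076519-123236149 on the minus strand.

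Amotl1 was measured at 54.3, 41.2 and 47.2 CPM in Bahd1-WT and at 48.0, 66.7 and 67.1 CPM in Bahd1-KO. Replicates 2 and 3 of Bahd1-KO were above all Bahd1-WT hemispheres, and replicate 1 was among them. The log2 fold change was 0.35 (SE 0.19), and with the offset 0.17 (SE 0.10), where the median of its GC group was 0.27. Amotl1 lies at chr9:14541966-14645056 on the minus strand.

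Plekhg1, a protein of a family that activates small GTPases by exchange of their nucleotide, was the gene with the tightest Bahd1-WT values. It was measured at 65.8, 67.0 and 61.6 CPM in Bahd1-WT and at 46.2, 41.5 and 53.4 CPM in Bahd1-KO, from 4137 to 6021 counts and from 2009 to 3956 counts. All Bahd1-KO hemispheres were below all Bahd1-WT hemispheres, and the means of 64.8 ± 2.86 and 47.0 ± 5.98 CPM (SD, n = 3 each) gave a log2 fold change of −0.46 (SE 0.16), or 0.726-fold. Its GC group had a median of −0.11, and 95.9% of that group lay above Plekhg1. With the offset 87.4% of the expressed genes lay above it. Its log2 fold change was then −0.33 (SE 0.09), with the genotypes still apart. It was negative in 16 of 16 alternative settings, between −0.60 and −0.33. Plekhg1 lies at chr10:3740364-3967303 on the plus strand.

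Slitrk6, a leucine-rich repeat membrane protein of synapses and of the inner ear, was measured at 15.3, 11.4 and 13.3 CPM in Bahd1-WT and at 9.7, 7.3 and 9.98 CPM in Bahd1-KO. Here too every Bahd1-KO hemisphere was below every Bahd1-WT hemisphere, and the log2 fold change was −0.57 (SE 0.21), or 0.673-fold. Slitrk6 has the lowest GC content of the 9 genes, 39.6%, and the genes of its GC group had a median log2 fold change of −0.55. With the offset its log2 fold change was −0.03 (SE 0.18), the genotypes overlapped, and leaving out each hemisphere in turn gave −0.17 to 0.11. Plekhg1 and Slitrk6, alike in their plain values, therefore parted once the GC trend was removed. With the offset 2 of the 9 genes were lower at an unadjusted p under 0.05, Plekhg1 and Shox2, beside 11.4% of all genes, and 2 were higher, Ramp3 and Lef1, beside 9.89%. Slitrk6 lies at chr14:110748580-110755149 on the minus strand.

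**Figure D3:**
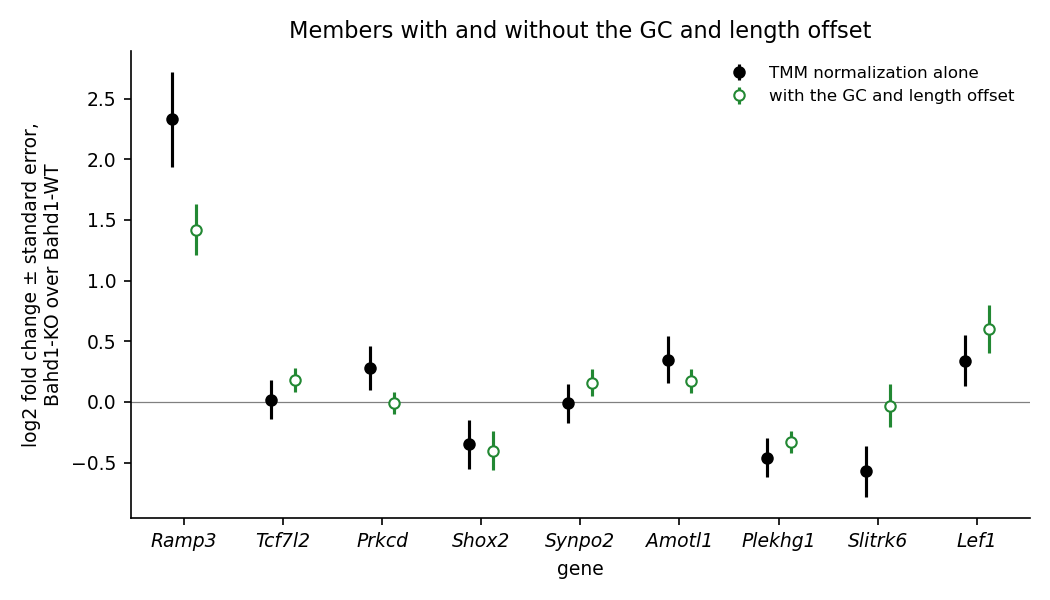
Log2 fold change of Bahd1-KO over Bahd1-WT with its standard error (y axis) for the 9 genes (x axis), by TMM normalization alone (filled) and with the GC and length offset (open). Ramp3 moves from 2.33 to 1.42 and Slitrk6 from −0.57 to −0.03, while Lef1 moves up from 0.34 to 0.60 and Plekhg1 stays below 0.

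Levels of different genes can be set side by side only per length of exon. In Bahd1-WT, Prkcd was the highest at 11.7 ± 1.57 CPM per kilobase (SD, n = 3), followed by Shox2 at 9.32 ± 1.06, Plekhg1 at 7.41 ± 0.327, Amotl1 at 4.73 ± 0.651, Tcf7l2 at 4.28 ± 0.268, Slitrk6 at 3.15 ± 0.46, Synpo2 at 2.3 ± 0.201, Ramp3 at 1.38 ± 0.387 and Lef1 at 1.16 ± 0.162. The neighbouring pairs Prkcd and Shox2, Amotl1 and Tcf7l2, and Ramp3 and Lef1 overlapped between hemispheres, and the other neighbours did not. In Bahd1-KO, Ramp3 stood at 6.96 ± 3.48 CPM per kilobase, among Shox2 at 7.32 ± 1.54, Amotl1 at 6.02 ± 1.08 and Plekhg1 at 5.38 ± 0.684, and its SD spanned all of these means. The rest were Prkcd at 14.3 ± 2.12, Tcf7l2 at 4.34 ± 0.457, Synpo2 at 2.28 ± 0.151, Slitrk6 at 2.12 ± 0.348 and Lef1 at 1.47 ± 0.243.

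The 9 genes did not share an order of hemispheres. The highest value was in Bahd1-KO replicate 2 for Ramp3, Prkcd and Lef1, in Bahd1-KO replicate 3 for Tcf7l2 and Amotl1, in Bahd1-WT replicate 2 for Shox2 and Plekhg1, and in Bahd1-WT replicate 1 for Synpo2 and Slitrk6. Bahd1-KO replicate 2 was at the same time the lowest for Shox2, Plekhg1 and Slitrk6. With the offset the highest value moved to Bahd1-KO replicate 2 for Tcf7l2 and Synpo2, and to Bahd1-WT replicate 1 for Prkcd. The lowest value of Slitrk6 moved to Bahd1-WT replicate 2, at 8.85 CPM. Relative to the mean, the SD between hemispheres of 1 genotype was 4.41% to 14.6% in Bahd1-WT and 6.6% to 21.1% in Bahd1-KO for the 8 genes other than Ramp3, against 27.9% and 50% for Ramp3. That contrast did not hold with the offset, where Ramp3 was at 2.51 ± 0.496 CPM in Bahd1-WT and 6.74 ± 1.34 CPM in Bahd1-KO. Relative to the mean, its SD was then near that of Slitrk6 in Bahd1-WT (11.1 ± 2.16 CPM). In Bahd1-KO it was smaller than that of Lef1 (14.2 ± 3.74 CPM).

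The genes whose profile over the 6 hemispheres was nearest to that of Ramp3 came from outside the thalamic lists. Among 12622 protein-coding genes, compared by the root mean square difference of centred log2 CPM over the 6 samples, the nearest 5 were AI413582 at 0.10, Mcrip1 at 0.11, Tmem115 at 0.12, Rpl28 at 0.14 and Rpp25l at 0.15. Rpl28 encodes a protein of the large ribosomal subunit. AI413582, for example, was at 3.64, 2.83 and 2.6 CPM in Bahd1-WT and at 8.83, 22.8 and 11.6 CPM in Bahd1-KO, the same order of Bahd1-KO replicates as Ramp3. The log2 fold changes of these 5 genes ran from 2.11 to 2.36, and with the offset from 0.71 for Tmem115 to 1.65 for Rpl28. Within a difference of 0.25 of Ramp3 there were 70 genes. Tcf7l2, whose profile was nearly flat, had 4184 genes within that distance, with Golga3, Sptbn1, Arel1 and Focad among the nearest at 0.03 each. These are descriptions over 6 samples that share their depth and GC trend.

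RAMP3 works only with a partner receptor, so the other genes of the calcitonin family were compared. Of 10 genes listed, 8 were tested, and Adm2 and Iapp had too few counts. By edgeR 0 of the 8 passed the thresholds of the study, and by DESeq2 with the prior, the fit meant wherever DESeq2 is named here, 1 did, beside 10.5% of all genes. At an unadjusted p under 0.05, 3 were higher in Bahd1-KO, Ramp1, Adm and Calcb, and 1 was lower, Calcrl. The same 10.5% stands beside each later count of calls by DESeq2. Here and for each list that follows, the shares of all genes tested to read counts at an unadjusted p against are 19.9% higher and 12.0% lower, and 9.89% and 11.4% with the offset. The median log2 fold change of the 8 genes was 0.59, or 0.22 with the offset, against −0.06 over all genes in both fits, and with the offset 4 were higher and 0 lower at an unadjusted p under 0.05.

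Ramp1, the partner that makes a CGRP receptor, was at 20.3, 15.9 and 18.6 CPM in Bahd1-WT and at 29.1, 59.2 and 30.3 CPM in Bahd1-KO, and the genotypes did not overlap. Its log2 fold change was 1.11 (SE 0.29, edgeR adjusted p = 0.0638), or 0.71 with the offset. Ramp2, which makes an adrenomedullin receptor and is typical of vessels, was at 14.2, 8.31 and 12.9 CPM in Bahd1-WT and at 16.2, 22.5 and 13.7 CPM in Bahd1-KO, where replicate 3 lay within the Bahd1-WT range. Its log2 fold change of 0.57 (SE 0.27, edgeR adjusted p = 0.182) became −0.35 with the offset.

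Neither receptor gene passed the thresholds in edgeR. Calcrl, the calcitonin receptor-like receptor that all 3 RAMP proteins can pair with, was at 25.1, 14.0 and 14.1 CPM in Bahd1-WT and at 10.6, 5.61 and 10.5 CPM in Bahd1-KO, with every Bahd1-KO hemisphere below every Bahd1-WT hemisphere. Its log2 fold change was −1.0 (SE 0.33, edgeR adjusted p = 0.0881), and −0.43 with the offset, Calcrl having 37.8% GC. Calcr, the calcitonin receptor that with RAMP3 binds amylin, overlapped between genotypes at 4.28, 2.87 and 2.97 CPM against 3.13, 2.0 and 2.80, with a log2 fold change of −0.36 (SE 0.27, edgeR adjusted p = 0.369), and −0.17 with the offset. Of the ligands, Adm, which encodes adrenomedullin, was at 2.20, 2.66 and 1.64 CPM against 2.94, 4.53 and 3.37, a log2 fold change of 0.74 (SE 0.27, edgeR adjusted p = 0.109), and 0.55 with the offset. Calcb, which encodes a CGRP, was low at 0.262, 0.372 and 0.314 CPM against 0.552, 0.620 and 0.605, a log2 fold change of 0.91 (SE 0.28, edgeR adjusted p = 0.0755), and 0.85 with the offset. Calca, which encodes calcitonin and a CGRP, had 0.62 (SE 0.29, edgeR adjusted p = 0.175), and 0.61 with the offset. Differences between the members of this family were not tested.

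**Figure D4:**
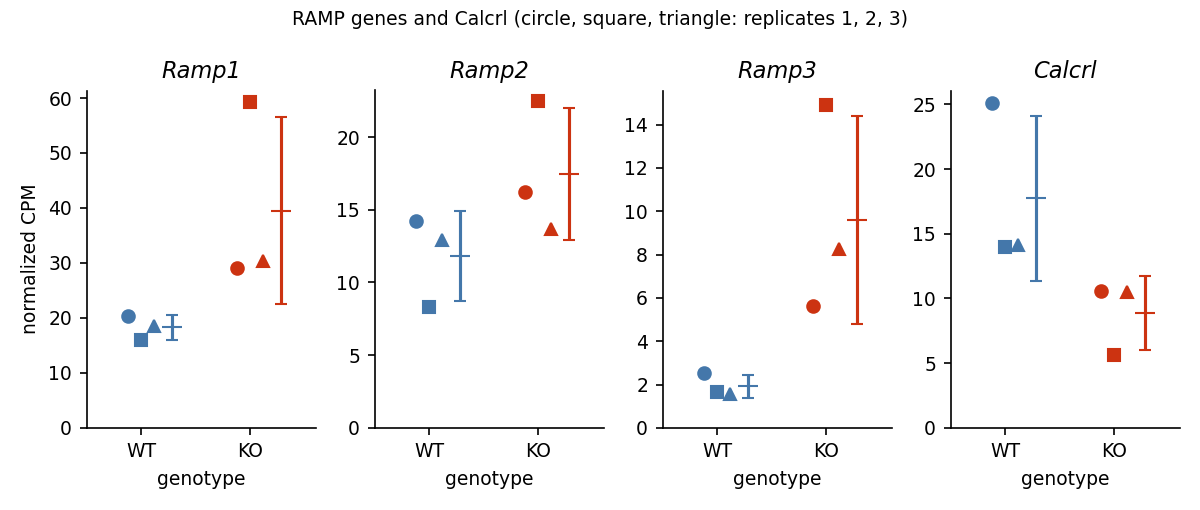
Normalized CPM (y axis, from 0) of Ramp1, Ramp2, Ramp3 and Calcrl in the 3 Bahd1-WT and 3 Bahd1-KO hemispheres (x axis). Circle, square and triangle are replicates 1, 2 and 3, and the bars are mean ± SD (n = 3). Bahd1-KO replicate 2 is the highest point for all 3 RAMP genes and the lowest for Calcrl.

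The other genes of thalamic relay nuclei were spread to both sides. Of 16 such genes, all tested, 8 were higher and 8 lower in Bahd1-KO, with a median of −0.03 and of 0.05 with the offset. By edgeR 0 of 16 passed the thresholds of the study, and by DESeq2 1, Cacna1g. At an unadjusted p under 0.05 there were 3 higher and 3 lower, and with the offset 2 and 2. Summed, they stood at 1601 to 1691 CPM in Bahd1-WT and at 1484 to 1601 in Bahd1-KO.

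The 3 higher genes were Cacna1g, which encodes the T-type calcium channel behind the burst firing of relay neurons, Tnnt1, which encodes a troponin, and Rgs16, a regulator of G protein signalling. Cacna1g was at 32.6, 19.0 and 23.8 CPM in Bahd1-WT and at 31.9, 118 and 67.5 CPM in Bahd1-KO, so that Bahd1-KO replicate 1 lay within the Bahd1-WT range and replicate 2 far above it. Its log2 fold change was 1.53 (SE 0.42, edgeR adjusted p = 0.0664), and 0.33 with the offset at a GC content of 58.1%. Tnnt1 had 0.86 (SE 0.33, edgeR adjusted p = 0.116) and Rgs16 0.75 (SE 0.27, edgeR adjusted p = 0.104), and with the offset they had 0.21 and 0.20. Of the 16 relay genes, 2, Tnnt1 and Rgs16, had every Bahd1-KO hemisphere above every Bahd1-WT hemisphere, beside 20.6% of all genes, and 4, Rora, Necab1, Foxp2 and Slc17a6, had every one below, beside 19.3%. With the offset the genotypes overlapped in each of these 6 genes. Of the 16, Zic1 alone then had every Bahd1-KO hemisphere above every Bahd1-WT hemisphere, beside 11.7% of all genes. Gbx2 alone had every one below, beside 14.6%. In all 3 higher genes the Bahd1-KO replicates had the order seen in Ramp3, with replicate 2 the highest and replicate 1 the lowest.

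The 3 lower genes were Rora, a nuclear receptor, Necab1, a calcium-binding protein, and Foxp2, a forkhead transcription factor. They had log2 fold changes of −0.55 (SE 0.21), −0.62 (SE 0.22) and −0.54 (SE 0.17), with edgeR adjusted p of 0.122, 0.107 and 0.0793. Their GC contents were 40.9%, 39.5% and 42.6%, and with the offset they had −0.02, −0.10 and −0.05. Slc17a6, which encodes the vesicular glutamate transporter of relay neurons, had −0.36 (SE 0.19, edgeR adjusted p = 0.211) and 0.03 with the offset. Gbx2 and Lhx2, transcription factors of the developing thalamus, had 0.25 and 0.61, and −0.92 and −0.57 with the offset.

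**Figure D5:**
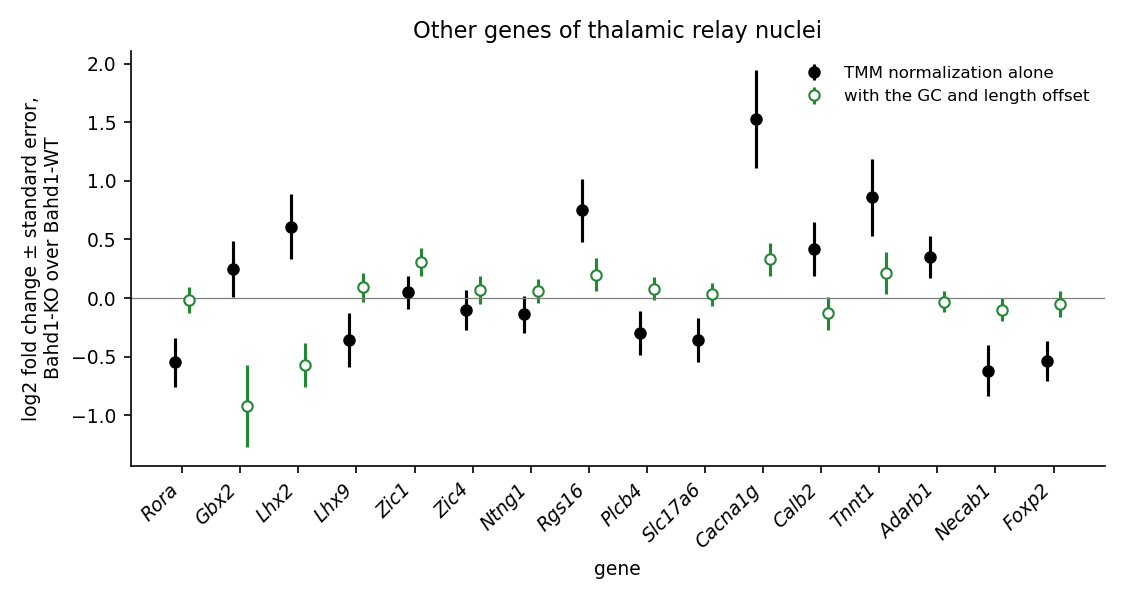
Log2 fold change of Bahd1-KO over Bahd1-WT with its standard error (y axis) for 16 further genes of thalamic relay nuclei (x axis), by TMM normalization alone (filled) and with the GC and length offset (open). Cacna1g moves from 1.53 to 0.33, and 14 of the 16 open points lie between −0.13 and 0.33, the exceptions being Gbx2 and Lhx2.

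Neighbouring nuclei were compared in the same way, and edgeR called 0 genes of either list, where DESeq2 called 1 of 9 and 2 of 7, beside 10.5% of all genes. Of 9 habenular genes, 3 were higher and 0 lower at an unadjusted p under 0.05, with a median of 0.51 and of 0.10 with the offset: Tac2, a tachykinin (1.06, edgeR adjusted p = 0.065), Chrnb4, a nicotinic receptor subunit (0.77, edgeR adjusted p = 0.0664), and Gpr151, an orphan receptor (0.61, edgeR adjusted p = 0.149). With the offset these 3 had 0.52, 0.55 and 0.59, and 3 of the 9 were higher and 1 lower at an unadjusted p under 0.05, the lower being Gng8 (−0.58). Of 7 genes of the reticular nucleus, 3 were higher, Pvalb, Ecel1 and Cacna1i, and 1 was lower, Isl1, with a median of 0.17 and of 0.18 with the offset, where 2 were higher, Pvalb and Spp1 (0.50), and 1 lower, Six3 (−0.67). Pvalb, the calcium buffer parvalbumin, which many inhibitory neurons outside the thalamus also carry, had 0.52 and 0.40 with the offset, while Ecel1 went from 1.71 to 0.28 and Cacna1i, another T-type channel gene, from 1.06 to −0.17.

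Genes that answer to TCF and β-catenin were compared because Tcf7l2 and Lef1 are among the 9. Of 13 genes, edgeR called 0 and DESeq2 called 3. At an unadjusted p under 0.05, 6 were higher and 0 lower, and with the offset 4 and 0. The median was 0.56 and, with the offset, −0.03, where 7 of the 13 had a negative sign. Axin2, the standard readout of Wnt signalling, was at 12.5, 9.72 and 11.7 CPM in Bahd1-WT and at 11.3, 23.7 and 17.3 CPM in Bahd1-KO, with overlap through Bahd1-KO replicate 1. Its log2 fold change was 0.62 (SE 0.27, edgeR adjusted p = 0.157), and −0.07 with the offset. Ctnnb1, which encodes β-catenin, had 0.05 (SE 0.14). Of the 6 higher genes, Notum and Nkd1, which encode inhibitors of the pathway, had 2.32 and 1.21 (edgeR adjusted p = 0.0634 and 0.0807) and 0.95 and 0.72 with the offset. Apcdd1 had 0.75 and 0.89, and Ccnd1 0.47 and 0.32. Tcf7l1, another TCF factor, went from 1.35 to −0.03 and Sp5 from 1.06 to −0.60.

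Relatives of Plekhg1, Slitrk6, Amotl1 and Synpo2 were compared as families, and edgeR called 0 in each, where DESeq2 called 3 of 5 Plekhg genes and 0 of the Slitrk, motin and Hippo, and synaptopodin genes, beside 10.5% of all genes. Plekhg1 differed in direction from the 5 other Plekhg genes tested, Plekhg2 to Plekhg6, which were all higher at an unadjusted p under 0.05, from 0.92 for Plekhg3 to 2.16 for Plekhg5 (SE 0.48, edgeR adjusted p = 0.0634), Plekhg6 being near the floor in Bahd1-WT. The median GC content of these 5 was 58.6%, and with the offset their median was 0.26, with Plekhg5 at 0.68 and Plekhg2 at −0.20, and 1 of the 5 was higher at an unadjusted p under 0.05. Slitrk1 to Slitrk5 shared the direction of Slitrk6, with log2 fold changes from −0.54 for Slitrk2 (edgeR adjusted p = 0.112) to −0.07 for Slitrk1, 1 of 5 at an unadjusted p under 0.05. That shared direction depended on the scaling, because scaling by total counts left 1 higher and 4 lower, and with the offset 3 were higher and 2 lower with a median of 0.06.

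Of 7 motin and Hippo genes, 1 was higher at an unadjusted p under 0.05, Nf2 (0.44, and −0.04 with the offset), and 1 lower, Lats1 (−0.50, and −0.11 with the offset). Their median was −0.18, and −0.11 with the offset, where 1 was higher and 2 lower. Amot and Amotl2, the closest relatives of Amotl1, had −0.31 and 0.59, and −0.11 and −0.37 with the offset. Of the 2 relatives of Synpo2, Synpo had 0.95 (SE 0.24, edgeR adjusted p = 0.0635), and −0.14 with the offset, and Synpo2l, low in the brain, had 0.32 (SE 0.50).

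Markers of other regions and cell types were read beside these values. Their part in the values of the 9 genes was not tested. For the regions edgeR called 0 genes, and DESeq2 called 1 striatal, 2 cerebellar, 2 hypothalamic and 1 olfactory bulb gene and 0 of the other region lists, from lists of 5 to 10 genes and beside 10.5% of all genes. For the cortex and hippocampus, 4 of 10 were higher and 1 lower at an unadjusted p under 0.05, with a median of 0.20, and with the offset 1 and 3, with a median of −0.11. For the striatum 2 of 9 were higher and 2 lower, with a median of 0.37, and with the offset 0 and 3, with −0.15. For the cerebellum 4 of 10 were higher and 0 lower, with a median of −0.19, and with the offset 3 and 1, with 0.11. For midbrain and hindbrain 2 of 8 were higher and 0 lower, with a median of 0.36, and with the offset 3 and 2, with 0.07. For the hypothalamus, which lies under the thalamus, 3 of 9 were higher and 2 lower, with a median of 1.54, and with the offset 1 and 2, with 0.02. Some of its genes with a positive log2 fold change had few counts in Bahd1-WT, Oxt with 6, 2 and 0 and Agrp with 3, 4 and 2. Agrp was not among the 3 at an unadjusted p under 0.05. The median was 0.15 over the 6 genes above 1 CPM in at least 3 samples. The summed levels of its genes overlapped, at 33.2 to 53.4 CPM in Bahd1-WT and 28.8 to 36.9 in Bahd1-KO. The medians of the cortical, striatal and cerebellar lists thus changed sign with the offset. Of the olfactory bulb genes 1 of 5 was higher, and 0 with the offset.

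Among lists of other cell types, edgeR called 0 genes in each, where DESeq2 called 1 smooth muscle, 2 endothelial, 1 choroid plexus, 2 myelin, 1 newly formed oligodendrocyte, 0 lymphocyte and 4 lung genes, beside 10.5% of all genes. Without the prior DESeq2 called 7 of the 8 lung genes. The 7 smooth muscle genes summed to 28.5 to 35.1 CPM in Bahd1-WT and to 42.5 to 72.5 in Bahd1-KO, and without Acta2, which had the highest mean CPM of them, the other 6 summed to 20.8 to 23.8 and to 28 to 50 CPM. At an unadjusted p under 0.05, 5 of the 7 were higher and 0 lower, with a median of 0.69, and with the offset 2 and 0, with 0.19. The 7 endothelial genes summed to 259 to 292 and to 302 to 412 CPM, and without Slc2a1, the glucose transporter gene of the blood-brain barrier, the other 6 overlapped at 196 to 214 and 200 to 234 CPM. Of the 7, 3 were higher and 0 lower, with a median of 0.40, and with the offset 2 and 0, with 0.22.

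The sums of the choroid plexus and of myelin each followed 1 gene. The 7 choroid plexus genes summed to 289 to 387 CPM in Bahd1-WT and to 471 to 1093 in Bahd1-KO, but without Ttr, which encodes transthyretin, the other 6 summed to 75.5 to 86.7 and to 68.9 to 74.2 CPM. Over all 7 the count was 1 higher, Ttr itself, and 1 lower, with a median of −0.06, and with the offset 1, again Ttr, and 2, with −0.04. The 5 myelin genes summed to 4887 to 5694 and to 5104 to 7898 CPM, and without Mbp, which encodes myelin basic protein, to 3684 to 4376 and to 3504 to 3898 CPM. Of these 5, 2 were higher and 0 lower, with a median of −0.08, and with the offset 3 and 1, with 0.39. The 5 genes of newly formed oligodendrocytes summed to 62.8 to 73.2 and to 64.5 to 79.6 CPM with 1 higher, and 1 with the offset. The 6 lymphocyte genes summed to 0.968 to 1.84 and to 0.919 to 1.31 CPM with 1 lower, and with the offset 1 higher. Of the lung genes 7 of 8 were lower in Bahd1-KO at an unadjusted p under 0.05, and 8 of 8 with the offset.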

How the data were processed

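RNA was extracted from 1 hemisphere of each of 6 adult mice and made into libraries with a TruSeq kit, stranded according to the paper. The authors deposited whole-number read counts per gene for 53801 genes, without normalization or filter. Per the labels, adapters were removed with cutadapt 1.11, reads aligned with STAR 2.5.0a to GRCm38 and counted with featureCounts 1.4.6-p3, and tested in R 3.5.1 with DESeq2 1.20.0. The supplementary methods also name Tophat2. Columns from elsewhere numbered 0 in the table. Embryonic brains were not analysed here.

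Genotype and replicate number came from the sample titles. A total of at least 10 counts across the 6 samples was required, which 23975 genes met. Genotypes were compared with edgeR 4.0.16 in R 4.3.3 by TMM normalization and a quasi-likelihood test on genotype alone, and p-values were adjusted over all genes tested by Benjamini-Hochberg. A call was an adjusted p under 0.05 with at least a 2-fold change. The SE of an edgeR fit was derived from its test, as the absolute log2 fold change over the square root of the F statistic. CPM used TMM-normalized library sizes. GC content of the longest transcript, length of merged exons and positions were from GENCODE M21 and covered 99.9% of the genes tested. The offset was a natural spline on GC content (5 degrees of freedom) and on log length (3), fitted in each library to the 13283 genes above 1 on the log2 CPM scale. Promoter windows were from RefSeq, and 9 of 9 genes matched. The code was tested on simulated data.

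The 9 genes, the lists and the tests were chosen with earlier results of these data known. Genes named are all 9, genes of the lists and, by likeness, the nearest 5 protein-coding genes to Ramp3 and to Tcf7l2, and a few of these are not reported here. Alternatives were other scalings, DESeq2 1.42.0 with and without a prior on fold changes, other filters on low counts, the offset, a replicate block, and leaving out each sample. Leaving out each sample together with the offset was added after the data were seen. The floor of 3 counts reflects counting error alone, because amplified reads are not separate molecules.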

Additional observations from a re-analysis of the deposited data

How the results depend on the processing

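The number of genes called over the whole table depended strongly on the processing: 2 in the main analysis, 2007 when scaled by total counts, 2522 and 2761 with DESeq2 with and without the prior, 2770 with no filter beyond 1 count, 4 with the offset, and 0 to 3988 when 1 sample was left out, the highest without Bahd1-KO replicate 1. Of the 9 genes, 0 were called in the main analysis and 1, Ramp3, with total counts, with either DESeq2 test, with no such filter, and without Bahd1-KO replicate 1 (range 0 to 1 over samples left out). Of the other relay genes 0 were called, against 1, Cacna1g, under those same 4 settings, and 0 to 2 over samples left out, Tnnt1 being the second without Bahd1-KO replicate 1.

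At an unadjusted p under 0.05, the number of the 9 genes higher in Bahd1-KO was 1, and 2 with the offset, alone or with the block, and 1 to 4 over samples left out, the highest without Bahd1-KO replicate 1. The number lower was 2, then 1 with total counts and 0 to 3 over samples left out, with 0 without Bahd1-WT replicate 1 and 1 without Bahd1-WT replicate 2 or 3. For the relay genes the numbers were 3 and 3, with 1 to 5 and 1 to 5 over samples left out. They were 5 and 5 without Bahd1-KO replicate 1, 1 and 1 without Bahd1-WT replicate 2, and 5 higher without Bahd1-KO replicate 3.

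Replicate numbers name different animals, and deviations of same-numbered samples, taken without the offset, were correlated at −0.644, −0.656 and −0.144. These deviations also hold the GC trend of each library, so they cannot show whether same-numbered animals shared a batch. With the replicate block 7 genes were called over the whole table, and 9 with the block and offset. With the block 0 of the 9 genes were lower at an unadjusted p under 0.05, and 1 with the offset too, and relay genes higher and lower fell to 1 and 1, and to 1 higher with the offset.

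Over the 16 alternative settings the log2 fold change of Ramp3 ran from 1.42 to 2.64. Ramp3, Shox2, Amotl1, Plekhg1, Slitrk6 and Lef1 kept their sign in 16 of 16, Prkcd in 14, Tcf7l2 in 13 and Synpo2 in 5. Of genes at an unadjusted p under 0.05, 62.4% were higher in Bahd1-KO, against 47.9% with upper-quartile factors, 75% with total counts and 46.3% with the offset. Upper-quartile factors also moved the median of all genes from −0.06 to −0.20. The cause of these shifts was not tested. With 3 animals a genotype, small differences could not be resolved.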
